A study of Mus musculus with 10 samples.

Results

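Receptor tyrosine kinases are cell-surface proteins that bind a growth factor outside the cell, pair up, and phosphorylate tyrosines inside it. Adaptor proteins then dock on those tyrosines and switch on the Ras-ERK and PI3K-Akt pathways, and genes induced by ERK encode inhibitors that feed back on the same route. In sympathetic neuroblasts and in neuroblastoma, the tumour of that lineage, Alk is known as an oncogene and Ret as the receptor for the GDNF family of neurotrophic factors. Followed here are 9 receptor genes: Alk, Ret, the neurotrophin receptors Ntrk2 (TrkB) and Ntrk3 (TrkC), the neuregulin receptor Erbb3 and its partner Erbb2, the insulin-like growth factor receptor Igf1r, the fibroblast growth factor receptor Fgfr1, and the stem cell factor receptor Kit. They were chosen by name, out of 23553 genes, with earlier results of these data known. The transcript row with the highest mean stood for each gene. Of the 9, 6 were tested in poly(A) RNA, because the other three (Erbb2, Ntrk2 and Kit) lay under the minimum mean of 0.5 RPKM.

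The cells were Neuro-2a, a mouse neuroblastoma line whose labels give the strain as C57BL/6+C57BL/6J+CBA. They were expanded in medium with 10% serum and transfected in differentiation medium with 2% serum, and all groups are labelled as grown in the differentiated condition. Control cells received siRNA for Luciferase (Luc), which has no target in mouse cells, and knockdown cells siRNA for mSfpq, both with the reagent RNAiMAX; Sfpq is a nuclear RNA-binding protein. For each siRNA there were 3 libraries of poly(A)-selected RNA, and 1 more library was made after removal of ribosomal RNA. Nothing in the labels ties the libraries to separate cultures, and the spread behind each p-value may thus be technical. RNA polymerase II chromatin immunoprecipitation, which the labels also list, is not analysed here.

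Values are RPKM, a read density scaled to transcript length and library size, so levels of different genes can be set side by side while read numbers are unknown. Judged by the spacing of low values, poly(A) depth relative to Luc replicate 1 ranged from 0.628 in Sfpq replicate 1 to 1.28 in Luc replicate 3, and the rRNA-depleted pair differed by a factor of 1.01. Sfpq RNA fell to 7.97% of the control mean in poly(A) RNA (limma adjusted p = 1.56e-06), and to 14.4% in the rRNA-depleted pair. These values are of its row with the highest mean, a noncoding RefSeq entry. The coding row of Sfpq stood at 8.70% in poly(A) RNA and 17.5% in the rRNA-depleted pair. Of 14 markers of sympathetic neuroblasts and neurons, 13 averaged 1 RPKM or more in poly(A) RNA, and of 8 glial, 6 fibroblast and 5 immune cell markers 0 did. Luc replicate 3 stood slightly apart from its group (correlations 0.985 and 0.979, against 0.996 between the other pair). Across the 11727 genes tested in poly(A) RNA, 21.3% were higher and 18.6% lower in Sfpq libraries (limma, fitted to log2(RPKM + 0.5), Benjamini-Hochberg adjusted p under 0.05), and the median log2 fold change was 0.05. In bulk RNA, less RNA per cell and fewer cells with the transcript cannot be told apart.

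Of the 6 receptors tested, 3 fell (Alk, Ret and Igf1r), 1 rose (Erbb3) and 2 did not pass the test (Fgfr1 and Ntrk3). The 3 that fell lay below every Luc library in every Sfpq library, as did 24.7% of all genes tested, and Erbb3 lay above, as did 28.2% of all genes tested. Promoter sequences, from RefSeq on build GRCm38.p6, were at hand for 2 of the genes that fell, Alk and Igf1r. They are shown because both RNAs fell, to 8.02% (Alk) and 51.1% (Igf1r) of the control mean in poly(A) RNA. The expression files use build mm9, and no measured position is set against these coordinates. Each run is the 250 bases before the start of the transcript, 5′ to 3′, with matches to the GC box GGGCGG on either strand in capitals.
Alk, chr17:72604308-72604557, minus strand: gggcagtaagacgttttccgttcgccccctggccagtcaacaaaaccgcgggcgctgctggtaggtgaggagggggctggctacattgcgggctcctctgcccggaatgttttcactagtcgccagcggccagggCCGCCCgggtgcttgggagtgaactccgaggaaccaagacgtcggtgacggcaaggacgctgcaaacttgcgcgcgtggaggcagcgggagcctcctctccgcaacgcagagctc
Igf1r, chr7:67952007-67952256, plus strand: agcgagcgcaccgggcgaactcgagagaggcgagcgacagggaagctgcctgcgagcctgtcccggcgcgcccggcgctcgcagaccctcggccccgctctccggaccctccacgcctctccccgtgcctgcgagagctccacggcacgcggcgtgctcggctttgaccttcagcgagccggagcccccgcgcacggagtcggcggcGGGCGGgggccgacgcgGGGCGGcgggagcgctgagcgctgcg
The Alk stretch holds 1 such match and the Igf1r stretch 2, and 32.7% of the 32851 mouse promoters in the table hold at least 1. Neither holds the E-box CACGTG, found in 6.02% of promoters, or TATAAA, found in 12.4%; both strands were searched, and no 2 motifs overlapped. The Alk stretch has 23 CpG dinucleotides and the Igf1r stretch 42, against a median of 6 over all promoters. The receptors with little or no RNA in these cells were not lower than that median, with 16 (Erbb2), 19 (Ntrk2) and 17 and 18 (2 entries of Kit). Each Kit entry also holds 1 GC box match, and the Erbb2 and Ntrk2 stretches hold 0. Whether these motifs bear on the changes in RNA was not tested.

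**Figure D1:**
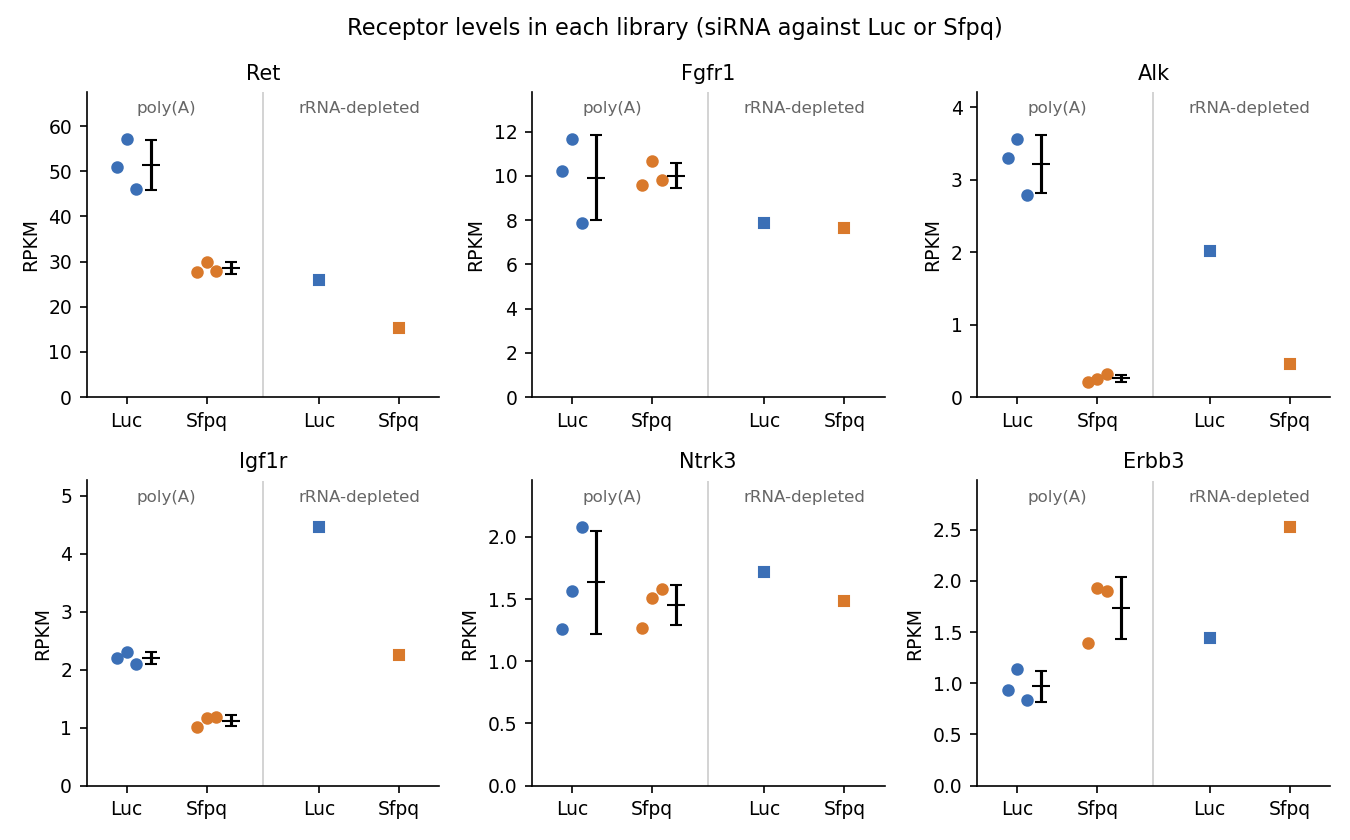
RPKM of the 6 receptors with measurable RNA in each library, on linear axes from 0. Circles are poly(A) libraries with their mean and SD in black (n = 3), and squares are the single rRNA-depleted libraries. Alk drops from 2.79 to 3.57 RPKM in Luc libraries to between 0.211 and 0.318 in Sfpq libraries, while Fgfr1 overlaps between groups.

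Alk showed the largest change of the 6. It stood at 3.30, 3.57 and 2.79 RPKM in control cells and at 0.211, 0.245 and 0.318 RPKM after knockdown. Every Sfpq library lay far below every Luc library, and the mean went from 3.22 ± 0.397 to 0.258 ± 0.0544 RPKM (SD, n = 3), which leaves 8.02%. The log2 fold change was -2.29 (SE 0.13, limma adjusted p = 3.6e-06), the 54th lowest among the 11727 genes tested. With so little Alk left, that value depends on the pseudocount, and it was -3.22 with 0.1 and -1.74 with 1 in place of 0.5. Alk reached the minimum mean only through the Luc libraries, and with no filter on low values its limma adjusted p was 0.00122. In rRNA-depleted RNA, which also keeps transcripts without a poly(A) tail, Alk stood at 2.01 RPKM in control and 0.453 in knockdown cells, or 22.5%. The log2 ratio there was -1.40; 5.18% of the 11386 genes that averaged 0.5 RPKM or more in that preparation had a ratio of -1 or less, and Alk was the only listed receptor among them. With 1 library per group this ratio has no replicate check, and whether the share left differs between the preparations was not tested.

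Ret was by far the most abundant receptor of the list and fell to about the same degree in both preparations. It had 51.0, 57.3 and 46.2 RPKM in control and 27.6, 30.0 and 28.0 in knockdown cells. The Sfpq libraries lay close together and below all Luc libraries, at 55.5% of the control level (log2 fold change -0.83, SE 0.11, limma adjusted p = 0.000356). The rRNA-depleted pair gave 26.0 RPKM for the control and 15.4 for the knockdown, or 59.3%. Its 2 RefSeq rows, NM_001080780 and NM_009050, had nearly equal values in each library, and the ratio of the rows lay between 0.968 and 1.03 over the 6 poly(A) libraries. Even after its fall, Ret made up 66.2% of the summed RPKM of the 9 genes in Sfpq libraries, against 74.2% in Luc libraries.

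Igf1r, whose product carries growth and survival signals of the insulin-like growth factors, roughly matched Ret in its fold change at a much lower level. Its values in RPKM were 2.20, 2.30 and 2.09 in control and 1.02, 1.16 and 1.19 in knockdown cells. The groups did not overlap, and 51.1% of the control level was left (log2 fold change -0.73, SE 0.12, limma adjusted p = 0.0011). The rRNA-depleted libraries had 4.46 RPKM with Luc and 2.26 with Sfpq siRNA, or 50.7%. Fgfr1, a receptor for several fibroblast growth factors, showed no change past the test. It had 10.2, 11.7 and 7.86 RPKM in control and 9.56, 10.6 and 9.80 in knockdown cells. The Sfpq values lay within the range of the Luc values (log2 fold change 0.03, SE 0.14, limma adjusted p = 0.896), and the rRNA-depleted libraries had 7.88 and 7.65 RPKM. Its 3 RefSeq rows gave the same picture, with row ratios between 0.959 and 1.02 in the poly(A) libraries.

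Erbb3, a neuregulin receptor with a weak kinase of its own that signals through its partners, was the receptor that rose. Its values in RPKM were 0.935, 1.14 and 0.838 in control and 1.39, 1.93 and 1.90 in knockdown cells. All Sfpq libraries lay above all Luc libraries, at 179% of the control level (log2 fold change 0.60, SE 0.15, limma adjusted p = 0.00984). Without poly(A) selection, 1.45 RPKM with Luc stood against 2.53 with Sfpq siRNA, or 175%. The call rests on a narrow margin: without Sfpq replicate 2 the adjusted p was 0.0511 (limma, log2 fold change 0.54), and with no filter on low values it was 0.0609. Erbb3 is also known from Schwann cells and their precursors. The 8 glial markers together had between 1.56 and 1.72 RPKM in control and between 1.46 and 1.77 in knockdown cells, and Sox10, the factor that defines that lineage, was listed at 0 in all of the poly(A) libraries, as were S100b, Aqp4 and Olig2. Its partner Erbb2 was close to absent, with 0.00826, 0.00726 and 0.00648 RPKM in control and 0.0132, 0.00708 and 0.0460 in knockdown cells. Scaled for depth, these values were 1 step in each poly(A) library other than Sfpq replicate 3, which had 6, so no fold change can be given. Erbb4, the other neuregulin receptor, was listed at 0 in the poly(A) libraries.

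The neurotrophin receptors differed widely in level. Ntrk2 and Kit were listed at 0 in the Luc poly(A) libraries, and Kit also in the Sfpq ones. Ntrk2 reached 0.00085, 0.00504 and 0.00109 RPKM after knockdown, and both genes were listed at 0 in the rRNA-depleted libraries. Ntrk3 had 2 RefSeq rows. Its more abundant row, NM_182809, had 1.26, 1.56 and 2.08 RPKM in control and 1.27, 1.51 and 1.58 in knockdown cells. These ranges overlapped, and the difference did not pass (log2 fold change -0.11, SE 0.16, limma adjusted p = 0.596). The row NM_008746 had 1.11, 1.33 and 1.37 RPKM in control and 0.751, 0.666 and 0.631 in knockdown cells, without overlap. Tested row by row, where 19.3% of 16793 rows were lower, it fell (log2 fold change -0.58, SE 0.12, limma adjusted p = 0.00476), to 53.8% of the control mean. Among rRNA-depleted libraries the same row stood at 1.26 RPKM in control and 0.675 in knockdown cells, or 53.4%, against 86.7% for NM_182809. Rows of 1 gene can share reads, and the files do not say how such reads were counted.

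**Figure D2:**
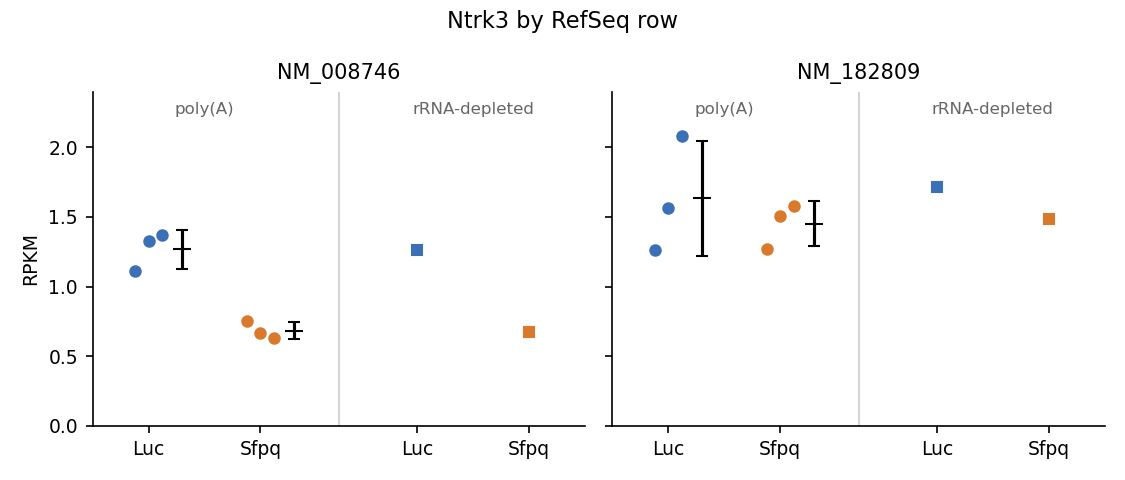
RPKM of the 2 Ntrk3 rows in each library, on linear axes from 0. Circles are poly(A) libraries with their mean and SD in black (n = 3), and squares are the single rRNA-depleted libraries. NM_008746 separates the groups in poly(A) RNA, and NM_182809 does not.

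Whether the Ntrk3 rows changed unequally was asked of their ratio in each library. NM_008746 stood at 0.880, 0.850 and 0.659 of NM_182809 in control and at 0.591, 0.442 and 0.399 in knockdown cells, without overlap. For the test, 0.5 RPKM was added to each row, so the difference is smaller than these plain ratios would give. The difference in log2 ratio, Sfpq minus Luc, was then -0.47 (SE 0.14), with an unadjusted limma p of 0.0215. Its adjusted p was 0.245 over 5066 pairs of rows, so the difference between the rows did not pass the test. Of those pairs, 1.78% did. In the rRNA-depleted libraries the ratio was 0.735 with Luc and 0.454 with Sfpq siRNA. With the mean of both rows in place of the higher one, Ntrk3 as a gene had a log2 fold change of -0.31 (limma adjusted p = 0.0986).

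These changes rearranged the order of the receptors. In Luc poly(A) libraries the order of the mean RPKM was Ret (51.5), Fgfr1 (9.92), Alk (3.22), Igf1r (2.20), Ntrk3 (1.63) and Erbb3 (0.970). No neighbouring pair overlapped in its library values, though the lowest Igf1r value (2.09) was barely above the highest of Ntrk3 (2.08). In Sfpq libraries Ret (28.6) and Fgfr1 (10.0) kept their places, followed by Erbb3 (1.74), Ntrk3 (1.45), Igf1r (1.12) and Alk (0.258). The place of Ntrk3 is that of its row NM_182809, and its row NM_008746 averaged 0.682 RPKM in Sfpq libraries, below Igf1r. The ranges of Erbb3 and Ntrk3 overlapped there, though Erbb3 was the higher of the pair within each Sfpq library, and the other neighbours did not overlap. By mean RPKM, Alk went from the third place to the sixth and Erbb3 from the sixth to the third. In rRNA-depleted RNA, Alk likewise stood sixth with Sfpq siRNA, and Igf1r (4.46 RPKM) stood above Alk (2.01 RPKM) with Luc siRNA.

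**Figure D3:**
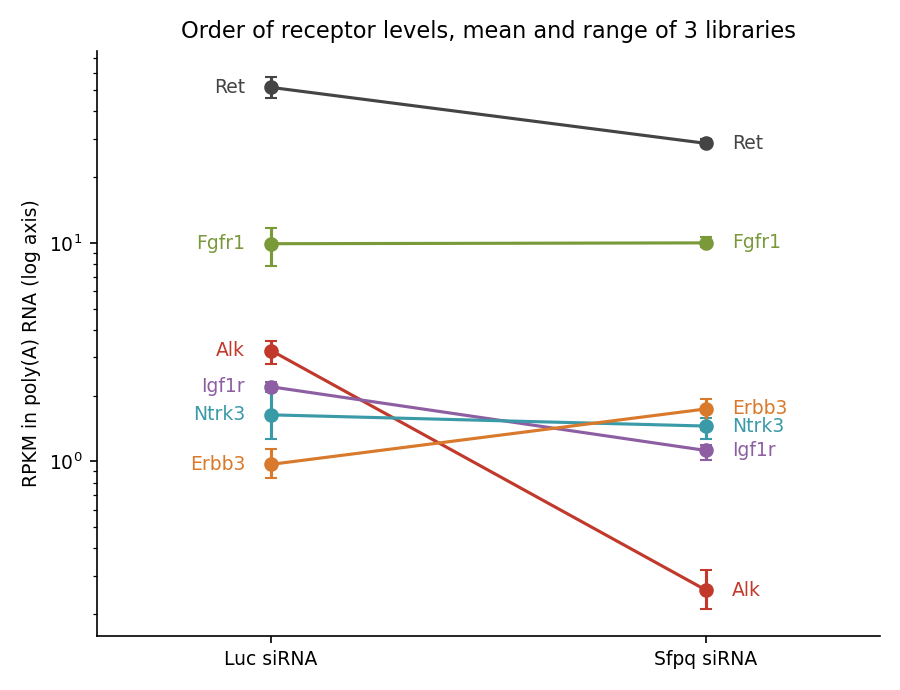
Mean RPKM in poly(A) RNA of the 6 receptors with measurable RNA, with Luc siRNA on the left and Sfpq siRNA on the right, on a log axis. Bars span the lowest and highest of 3 libraries. Alk crosses from 3.22 to 0.258 RPKM, below Igf1r, Ntrk3 and Erbb3, which rises from 0.970 to 1.74.

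The lists of genes around the receptors were also chosen with earlier results of these data known, so their shares are descriptions only. Among other receptor tyrosine kinases, Eph receptors left aside, 15 of 32 genes were tested. Of these 6 rose (40%, against 21.3% of all genes tested), 2 fell (13.3%, against 18.6%) and 7 did not pass, with a median log2 fold change of 0.36; without Sfpq replicate 2, 4 rose and the median was 0.21. Ltk, the closest relative of Alk, had 2.24, 3.34 and 2.84 RPKM in control and 5.39, 4.77 and 5.70 in knockdown cells, so it rose while Alk fell (log2 fold change 0.82, SE 0.15, limma adjusted p = 0.00211). Axl, a receptor of the Gas6 ligand, rose from 0.229 ± 0.0130 to 1.14 ± 0.139 RPKM (SD, n = 3; log2 change 1.17, or 1.91 with a pseudocount of 0.1 and 0.80 with 1), the collagen receptor Ddr1 by 1.09 and Pdgfrb by 0.84 on the log2 scale. The other collagen receptor, Ddr2, fell (-0.84), as did the epidermal growth factor receptor Egfr (-0.72, or -1.18 with a pseudocount of 0.1). Axl reached the minimum mean only through the Sfpq libraries and Egfr only through the Luc libraries; with no filter their limma adjusted p was 0.00197 and 0.00879. Insr, the insulin receptor and relative of Igf1r, rose by 0.36 (limma adjusted p = 0.0268), a call that ended without Luc replicate 1 (0.39) or without Sfpq replicate 1 (0.36), 2 (0.34) or 3 (0.37). For Axl, Ddr1, Pdgfrb, Ltk, Ddr2 and Egfr the log2 ratio in rRNA-depleted RNA had the same sign (0.92, 0.88, 0.78, 0.52, -0.68 and -0.61). Axl, Ddr1 and Pdgfrb came from the rule for naming genes, and the other receptors of this paragraph were picked after their values were seen.

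Few ligand genes reached the minimum for the test. Of 27 ligand genes 5 were tested. Of these 2 fell (40%, against 18.6% of all genes tested), 1 rose (20%, against 21.3%) and 2 did not pass. The median was 0.21 and turned to -1.01, with 1 lower, at a minimum mean of 2 RPKM. Ptn encodes pleiotrophin, a secreted growth factor that has been proposed as a ligand of Alk. It had 18.1, 19.3 and 19.9 RPKM in control and 3.16, 3.57 and 4.31 in knockdown cells, with no overlap (log2 fold change -2.24, SE 0.12, limma adjusted p = 2.81e-06), and 14.3 against 2.74 RPKM in rRNA-depleted RNA. Fgf1, a ligand of Fgfr1, fell from 1.72 ± 0.192 to 0.446 ± 0.0246 RPKM (SD, n = 3; -1.23). With a pseudocount of 0.1 the change was -1.74, and with 1 it was -0.91. Fgf1 reached the minimum mean only through the Luc libraries, and with no filter its limma adjusted p was 0.00228. Ntf5, a ligand of Ntrk2, had 0.426 ± 0.0147 RPKM in control and 0.765 ± 0.171 in knockdown cells (SD, n = 3; 0.44). It reached the minimum mean only through the Sfpq libraries and did not pass with no filter (limma adjusted p = 0.0688), and 0 ligands rose without Luc replicate 1 or 2 or without Sfpq replicate 2 or 3. Alkal1 and Alkal2, the established Alk ligands, and the Ret ligand gene Gdnf were listed at 0 in all 8 libraries. Artn, another ligand of the Ret complex, had 3.60 ± 0.309 RPKM in control and 4.24 ± 0.0957 in knockdown cells (SD, n = 3) and did not pass (log2 fold change 0.21).

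Ret binds its ligands through GFRA co-receptors, and these were low throughout. Gfra1, which serves GDNF, had 0.448, 0.353 and 0.513 RPKM in control and 0.163, 0.312 and 0.381 in knockdown cells, ranges that overlap, with a mean under the minimum for the test. Gfra2 reached at most 0.377 RPKM, and Gfra3, which serves Artn, and Gfra4 were listed at 0 in all 8 libraries. Of 19 co-receptor genes 6 were tested, with a median of -0.30. Of these 3 fell (50%, against 18.6% of all genes tested), 1 rose (16.7%, against 21.3%) and 2 did not pass. Those that fell were the glypican Gpc1 (15.3 ± 1.28 to 6.95 ± 0.519 RPKM, SD, n = 3; -1.09 on the log2 scale), the neurotrophin receptor Ngfr (41.5 ± 4.28 to 28.8 ± 2.15 RPKM, SD, n = 3; -0.52) and the syndecan Sdc1 (-0.48). The 1 that rose was the syndecan Sdc3 (0.38); 0 rose with median-ratio scaling, or without Luc replicate 1 or any 1 of the Sfpq replicates.

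Downstream of the receptors, genes rose and fell in shares near those of all genes tested (21.3% higher, 18.6% lower). Of 22 adaptor genes 4 rose (18.2%), 5 fell (22.7%) and 13 did not pass, with a median of 0.02. The docking proteins Gab2 (5.05 ± 0.178 to 1.57 ± 0.138 RPKM, SD, n = 3; -1.42 on the log2 scale) and Irs2, a substrate of Igf1r (-1.02), and the scaffold Ksr1 (-1.06) fell, whereas Dok4, an adaptor that binds Ret, rose from 7.29 ± 1.44 to 20.6 ± 1.20 RPKM (SD, n = 3; 1.45). Ksr1 averaged 0.438 RPKM in Sfpq libraries and reached the minimum mean only through the Luc libraries. Its log2 fold change was -1.54 with a pseudocount of 0.1 and -0.77 with 1, and with no filter its limma adjusted p was 0.00465. Adaptors that rose numbered 1 without Luc replicate 1 or Sfpq replicate 2 and 2 without Sfpq replicate 3, and those that fell numbered 3 without any 1 of the Sfpq replicates. Of 15 Ras-ERK genes 3 rose (20%), 3 fell (20%) and 9 did not pass, with a median of -0.09 that turned to 0.07 without Luc replicate 3. Map2k1 (MEK1, -0.76) and the ERK-activated kinase Rps6ka2 (-0.82) fell, and Mapk3 (ERK1, 0.61) rose; without Luc replicate 3, 6 rose and 6 fell. Of 17 PI3K-Akt genes 3 rose (17.6%), 4 fell (23.5%) and 10 did not pass, with a median of 0.04 that turned to -0.08 without Luc replicate 3. The kinase subunits Pik3r1 (-0.73) and Pik3ca (-0.67) fell; 2 genes of the list fell without Sfpq replicate 2. When low values were not filtered, Pik3ca did not pass (limma adjusted p = 0.0562).

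Among negative regulators, the largest changes were falls. Of 20 tested 8 fell (40%, against 18.6% of all genes tested), 4 rose (20%, against 21.3%) and 8 did not pass. The list's median was -0.04. The 8 were the Ras-ERK inhibitors Spred2, Spred1, Spry1, Spry2 and Spry4, the phosphatases Dusp4 and Dusp6, which remove the activating phosphates of ERK, and Lrig1, which promotes receptor breakdown. Spred2 had 16.1, 19.4 and 16.4 RPKM in control and 2.91, 2.95 and 4.66 in knockdown cells (log2 fold change -2.18, SE 0.17, limma adjusted p = 1.91e-05). Dusp4 had 78.2, 80.6 and 84.0 RPKM in control and 20.9, 25.4 and 23.4 in knockdown cells (-1.78, SE 0.10, limma adjusted p = 3.74e-06), and Dusp6 dropped from 39.1 ± 1.14 to 19.3 ± 0.995 RPKM (SD, n = 3), or 49.4% of control. None of the groups of these 3 genes overlapped, and 24.7% of all genes tested likewise lay wholly below in Sfpq libraries. In rRNA-depleted RNA the log2 ratios were -2.16 (Spred2), -1.78 (Dusp4) and -1.14 (Dusp6). The Spred1 fold change was -1.33, that of Lrig1 -1.13, and those of the Sprouty genes -0.58 (Spry1), -0.70 (Spry2) and -0.65 (Spry4); with no filter on low values Spry1 did not pass (limma adjusted p = 0.102). Those that rose, such as Spred3 (0.46), numbered 1 without Luc replicate 1 or 2 or Sfpq replicate 1 or 2, and 2 without Sfpq replicate 3 or with median-ratio scaling.

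Of 9 genes that ERK signalling is known to induce, 5 fell, 1 rose and 3 did not pass, with a median of -0.41. The share that fell was 55.6%, against 18.6% of all genes tested, and the share that rose 11.1%, against 21.3%. The transcription factors Etv5 (63.7% of the control mean, log2 fold change -0.64), Etv4 (-0.56), Egr1 (-0.67) and Myc (-0.52) and the cyclin Ccnd1 (-0.41) fell. Etv1, of the same family as Etv4 and Etv5, rose from 2.16 ± 0.516 to 5.28 ± 0.288 RPKM (SD, n = 3; 1.13). The Ccnd1 call ended without Luc replicate 1 (-0.38) or 2 (-0.33), without Sfpq replicate 1 (-0.38) or 3 (-0.39), with quantile normalization (limma adjusted p = 0.0603) and with no filter on low values (0.0931). Over all 8 lists around the receptors, 32 of 109 genes tested fell (29.4%, against 18.6% of all genes tested) and 23 rose (21.1%, against 21.3%). The genes that rose numbered 12 without Luc replicate 1, 11 without Sfpq replicate 2 and 14 without Sfpq replicate 3.

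**Figure D4:**
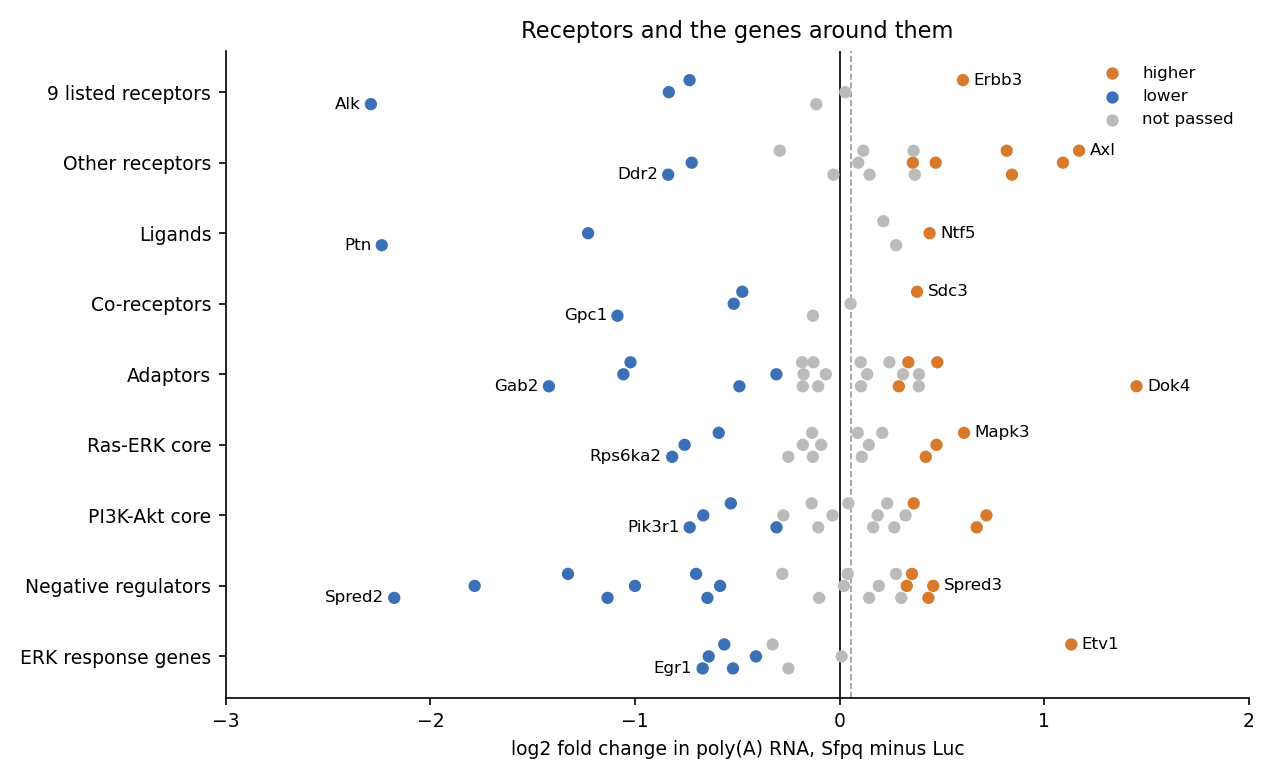
Log2 fold change in poly(A) RNA, Sfpq minus Luc, of each gene tested, by list, with 3 poly(A) libraries per group. Colours mark genes called higher or lower and grey those that did not pass, the dashed line is the median of all genes tested (0.05), and the called gene at each end of a list is named, except at the upper end of the PI3K-Akt list. Alk (-2.29), Ptn (-2.24) and Spred2 (-2.18) reach farthest to the left.

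The genes with the profile most like that of Alk were sought by Pearson correlation of log2(RPKM + 0.5) over all 8 libraries, among 10969 genes that averaged 1 RPKM or more. They were Ttc28 (r = 0.998), the zinc finger factors Zfp423 (0.996) and Zbtb7c (0.994), Ralgps1 (0.993) and Sdccag8 (0.992). Their poly(A) log2 fold changes lay between -1.52 (Sdccag8) and -2.29 (Ralgps1). Ttc28, Zbtb7c and Ralgps1 averaged 0.288, 0.282 and 0.373 RPKM in Sfpq poly(A) libraries, and reached the minimum mean only through the control libraries. Values so low depend on the pseudocount: with 0.1 the change was -2.73 for Ttc28 and -2.43 for Zbtb7c, and with 1 it was -1.43 and -1.21. Ralgps1 had 3.53, 4.37 and 3.45 RPKM in control and 0.312, 0.388 and 0.420 in knockdown cells, close to Alk in level as well. For Ret the closest were the rows NM_008710 and NR_003544, for which the name table gave no symbol (r = 0.997 for each), the metabolic enzyme gene Gcat (0.997), the growth-cone protein gene Dpysl3 (0.997) and the amyloid precursor gene App (0.995). In poly(A) RNA Gcat stood at 50.0% of its control mean, Dpysl3 at 51.0% and App at 63.5%, against 55.5% for Ret. The unnamed rows NM_008710 and NR_003544 fell less, to 74.7% and 74.8%. These 8 libraries share the knockdown and the 2 preparations. Any gene whose values move in a like pattern thus scores highly, whatever the size of its change, and the correlations are descriptions only.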

How the data were processed

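Each library has 1 file of RPKM values, per the file headers, whose rows are RefSeq transcripts. The authors aligned reads with TopHat2 2.0.10 to mm9, as the submitters' processing notes list them. How the deposited RPKM values were computed, with which annotation, and how strand and shared reads were treated is not given in the sources used here. Without counts, no interval from read counts can be given, and precision comes from the replicates. Where genes overlap, their reads cannot be told apart.

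Groups and replicate numbers came from the sample titles; for Sfpq replicate 2 the description and the title disagree on the number. Of 30978 rows, 30507 (98.5%) were named through a RefSeq table of GRCm38.p6, used for names only, and the row with the highest mean over the 8 libraries stood for a gene. The poly(A) groups were compared with limma 3.58.1 (R 4.3.3, trended prior) on log2(RPKM + 0.5), restricted to genes averaging 0.5 RPKM or more over 6 libraries, with Benjamini-Hochberg adjustment over 11727 genes. Ratios of rows were fitted the same way without trend, a step added after the values were seen. The rRNA-depleted libraries gave log2 ratios on the same scale. Depth was compared through ratios of whole numbers up to 20 between low values, within 0.002 on the natural log scale. Python 3.11.15 with pandas 2.3.3 was used for tables.

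The receptors and lists were chosen with earlier results of these data known. Of 177 symbols written in 8 lists around the receptors, 175 were found. All 9 receptors were named, with the 3 largest called genes of each list, or its 2 most abundant genes tested where 0 were called, and the 5 genes most correlated with Alk and with Ret; other genes were picked after their values were seen. A few genes, some of them under this rule, are not reported here. The poly(A) fit was tested on simulated data for 11727 genes, 200 of them changed: it found 21.7% of those moved by 0.5 on the log2 scale, 82.2% of those moved by 1 and 100% of those moved by 2, with 0.0521% false calls among the rest. Far more genes were called in the real data (4687), so the Benjamini-Hochberg cutoff was stricter in the simulation. Noise was also drawn for each gene on its own, without shifts shared by a library. The simulated rates thus do not give the error of the real calls. Alternatives were other pseudocounts, filters and scalings, limma without trend, a replicate block, averaging a gene's rows, and omission of single libraries.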

Additional observations from a re-analysis of the deposited data

How the results depend on the processing

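Alk and Igf1r kept their direction and their call under all 14 alternatives run for them, and Ret under all 15, with log2 fold changes from -3.22 to -1.74 (Alk), -0.91 to -0.59 (Igf1r) and -0.91 to -0.76 (Ret); the ends of the range came from the pseudocount for Alk and Igf1r, and from leaving out Luc replicate 3 or 2 for Ret. Fgfr1 and Ntrk3 passed under none, between -0.12 and 0.15 and between -0.31 and 0.03. Erbb3 passed under 12 of 14: with no filter on low values it did not (0.60, limma adjusted p = 0.0609), and leaving out 1 library gave 0.54 to 0.72, with the call lost without Sfpq replicate 2. The receptors that rose thus numbered 0 with no filter and 0 with a minimum mean of 2 RPKM, where only Ret and Fgfr1 were tested and 1 receptor fell, and 0 to 1 with a library left out. Over the lists around the receptors, 23 genes rose, against 12 with no filter and 11 to 32 with a library left out. The log2 ratios in rRNA-depleted RNA were -1.93 (Alk) and -0.95 (Igf1r) with a pseudocount of 0.1, and -1.05 and -0.74 with 1. With no filter, 1 negative regulator, 1 PI3K-Akt gene and 2 adaptors rose, 2 PI3K-Akt genes fell, and 0 ligands and 0 co-receptors rose. Of 55 genes called in the lists, 37 kept their call with each library left out in turn and 34 under all alternatives, and 0 reversed. Over all genes tested, 2502 rose and 2185 fell. Those that rose numbered 1546 and 1631 when Sfpq replicate 2 or 3 was left out, and 3621 without Luc replicate 3. With median-ratio scaling, 2257 rose and 2504 fell, so the shares of all genes set beside the lists also depend on the processing. The cause of these moves was not tested.

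Replicate numbers are shared by the poly(A) groups. Deviations of same-numbered libraries from their group means correlated at 0.327, -0.035 and 0.157, and not every library correlated best with its own number. Such deviations sum to 0 within each group, so these correlations neither show nor exclude pairing. With a replicate block, 4990 genes were called, against 4687 without; Alk had an adjusted p of 4.14e-06, Ret 0.000282, Igf1r 0.00179 and Erbb3 0.0076, and the calls of the 6 receptors tested were the same. Signal limits Erbb2, Ntrk2 and Kit, for which no change can be read.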
